A study of Homo sapiens with 16 samples.

Results

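The genes described here carry chloride, bicarbonate and protons across epithelial membranes, or supply the bicarbonate that is carried. There were 9 of them, out of 35810 genes in the data: SLC26A2, SLC26A3, SLC26A6, CFTR, SLC4A2, SLC4A4, SLC4A7, SLC9A3 and CA2. They were chosen by the CPM of SLC26A3, which rose in these cells under the drug. The values of SLC26A3 are therefore given as a description with no test, and the other 8 were tested. Those 8 were also picked with earlier results of these data known, so their tests are not free of that choice. The RNA came from pancreatic progenitors that had been differentiated in culture for 19 days from an SA121-derived human embryonic stem cell line. Every group carried the same NGN3-GFP reporter, and the line was the only one in this series. The cells received 0.5 µM latrunculin B, which prevents actin from polymerising, for 3 h (n = 3), 6 h (n = 3), 12 h (n = 2) or 24 h (n = 3). Control 24 h (n = 2) received DMSO, and control 0 h (n = 3) is tagged DMSO in the labels although the series text places its harvest before treatment. The groups at 3, 6 and 12 h were all compared with control 0 h, which they share, and the group at 24 h with control 24 h. Nothing says that the replicates were separate cultures, so p-values measure only the spread between these libraries.

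Pancreatic duct cells secrete a fluid rich in bicarbonate that neutralises gastric acid. In the textbook scheme, sodium-bicarbonate cotransporters such as SLC4A4 load bicarbonate through the basolateral membrane, and carbonic anhydrases such as CA2 make it from carbon dioxide inside the cell. CFTR, a chloride channel opened by cyclic AMP and the gene mutated in cystic fibrosis, and anion exchangers of the SLC26 family then release it into the lumen. SLC26A3 is best known from the colon, where it exchanges luminal chloride for bicarbonate, and its loss causes congenital chloride diarrhoea.

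The 250 bases before the RefSeq transcription start (GRCh38.p14) are shown for the genes on which the results turn. For SLC26A3 and CFTR they set the promoter of the gene with the large change beside that of the most abundant gene. For SLC4A4 they show the pair of starts between which the reads had to be assigned. Capitals mark AGGTCA, the core of sites for many nuclear receptors, and GTTAAT, one arm of the HNF1 site. Both strands were searched, and GTTAAT was added to the search after the sequence had been seen. Each sequence reads 5′ to 3′ along its gene.
SLC26A3, chr7:107803224-107803473, minus strand: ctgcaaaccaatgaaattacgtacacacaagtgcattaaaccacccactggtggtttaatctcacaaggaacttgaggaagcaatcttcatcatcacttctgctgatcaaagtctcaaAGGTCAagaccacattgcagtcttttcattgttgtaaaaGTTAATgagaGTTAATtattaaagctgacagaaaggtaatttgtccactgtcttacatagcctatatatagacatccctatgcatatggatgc
CFTR, chr7:117479775-117480024, plus strand: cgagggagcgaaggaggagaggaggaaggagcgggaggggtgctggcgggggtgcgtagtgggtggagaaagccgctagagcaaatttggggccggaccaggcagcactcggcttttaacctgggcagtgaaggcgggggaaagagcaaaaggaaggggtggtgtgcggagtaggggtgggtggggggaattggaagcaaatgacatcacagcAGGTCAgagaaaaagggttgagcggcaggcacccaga
SLC4A4 outer start, chr4:71187009-71187258, plus strand: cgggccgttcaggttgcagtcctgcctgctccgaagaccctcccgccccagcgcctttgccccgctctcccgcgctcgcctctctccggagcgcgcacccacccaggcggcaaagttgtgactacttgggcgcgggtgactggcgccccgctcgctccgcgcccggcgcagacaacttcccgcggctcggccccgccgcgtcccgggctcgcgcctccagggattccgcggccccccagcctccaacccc
SLC4A4 inner start, chr4:71338770-71339019, plus strand: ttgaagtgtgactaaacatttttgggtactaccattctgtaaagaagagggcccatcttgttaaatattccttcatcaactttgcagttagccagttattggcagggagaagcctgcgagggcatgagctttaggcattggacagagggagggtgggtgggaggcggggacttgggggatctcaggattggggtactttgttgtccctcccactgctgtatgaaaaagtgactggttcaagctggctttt

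The window of SLC26A3 was poor in G and C (37.6%), that of CFTR held 61.2%, and that of the outer SLC4A4 start 75.2% against 48.4% at the inner start. GTTAAT occurred 2 times before SLC26A3, with its first base 93 and 83 bases from the start, and in 6.24% of the 34943 windows of the same length in the table. AGGTCA occurred 1 time before SLC26A3 and 1 time before CFTR, and 12.1% of all windows held it. The other letters searched were TTTATG for CDX factors, AGATAA for GATA factors, TGTTTAC for FOXA factors, GGAATG for TEAD factors, TGANTCA for AP-1 and TGACGTCA for the cyclic AMP response element, besides the CArG box, and none of them was found in the 4 windows. Over all windows they occurred in between 1.16% (the CArG box) and 11.9% (GGAATG). These are matches of letters only.

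The libraries held 23609727 to 33515398 estimated reads. Pancreatic progenitor identity was checked with 10 markers, of which 9 reached 1 TPM (a transcript's share of the library after scaling for its length) in every library of every group, while PTF1A stayed below 1 TPM throughout. Of 10 intestinal markers, between 3 and 5 reached 1 TPM in every library of a group. Over all libraries VIL1 ranged from 39.4 to 123 TPM, CDX2 from 18.5 to 66.5 TPM and CDH17 from 2.84 to 8.74 TPM, while CDX1, FABP2 and MUC2 were at or near 0 in every library. Of 8 liver markers, between 6 and 7 reached 1 TPM in every library of a group. Their summed TPM was 1854 to 2204 in control 0 h and 2936 to 3089 at 6 h. That of the progenitor markers was 1874 to 2116 and 1795 to 2079. One library, latrunculin B 12 h replicate 2, stood apart. The summed TPM of 9 mesenchyme markers was 879 in it, against 233 in the other library of its group and 171 to 379 in the rest, and that of 8 liver markers was 4394 against at most 3089 elsewhere. COL3A1 (207 TPM), LUM (116 TPM), CLDN18 (133 TPM) and TTR (1414 TPM) were highest in it. The summed TPM of 10 endocrine markers was 60.5 to 75.8 in control 0 h, 135 to 235 at 3 h, 180 to 322 at 6 h, 184 to 187 at 12 h, 104 to 122 in control 24 h and 139 to 501 at 24 h of latrunculin B. SST, which encodes somatostatin, made up most of the early change, with means of 44.1 TPM in control 0 h, 142 TPM at 3 h and 191 TPM at 6 h, whereas NEUROG3 had means of 0.701, 0.877 and 2.91 TPM. Of the 10 markers 2 were called higher at 3 h, 7 at 6 h, 7 at 12 h and 6 at 24 h. By edgeR at an adjusted p under 0.05, 16.8%, 22.9%, 19.1% and 21.9% of all genes tested were called higher at these times. The marker count at 3 h was near that share. The part of these markers in the results that follow was not tested. Results that rest on 12 h replicate 2 are given with and without it. For comparisons that do not involve 12 h, the fit without it was added after seeing the data. Because these are bulk libraries, fewer cells that express a gene and less RNA of it per cell cannot be told apart.

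SLC26A3 (ENSG00000091138.13; GRCh38 chromosome 7, 107765467 to 107803225) rose within 3 h, peaked at 6 h and fell back without returning to its starting level. In CPM (read counts scaled to the size of the library, with TMM factors) it stood at 12.6, 15.0 and 17.9 in control 0 h. At 3 h of latrunculin B the libraries gave 67.2, 70.4 and 98.4 CPM, and at 6 h 175.8, 200.9 and 223.9 CPM. Every library at 3 h lay above every control, and every library at 6 h above every library at 3 h. The fitted change from control 0 h was 2.37 (SE 0.32) on the log2 scale at 3 h, or 5.18-fold, and 3.72 (SE 0.33) at 6 h, or 13.2-fold.

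At 12 h SLC26A3 was at 69.0 CPM in replicate 1 and at 21.7 CPM in replicate 2, the library that stood apart. Replicate 1 thus lay in the range of the 3 h libraries, and replicate 2 lay below both libraries of control 24 h. The log2 change from control 0 h was 1.57 (SE 0.35) with both and 2.19 (SE 0.23) without replicate 2. At 24 h the values were 52.8, 57.6 and 73.5 CPM under latrunculin B and 31.3 and 28.3 CPM in control 24 h. The groups did not overlap, and the log2 change was 1.04 (SE 0.35), or 2.06-fold. The control at 24 h had itself risen over control 0 h, by 0.97 (SE 0.36) on the log2 scale, so against control 0 h the change at 24 h was 2.01. The choice of control moved the other times too, to 1.40 at 3 h and 2.75 at 6 h against control 24 h. The standard error of each of these changes shrank when 12 h replicate 2 was left out, for example from 0.33 to 0.18 at 6 h.

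**Figure D1:**
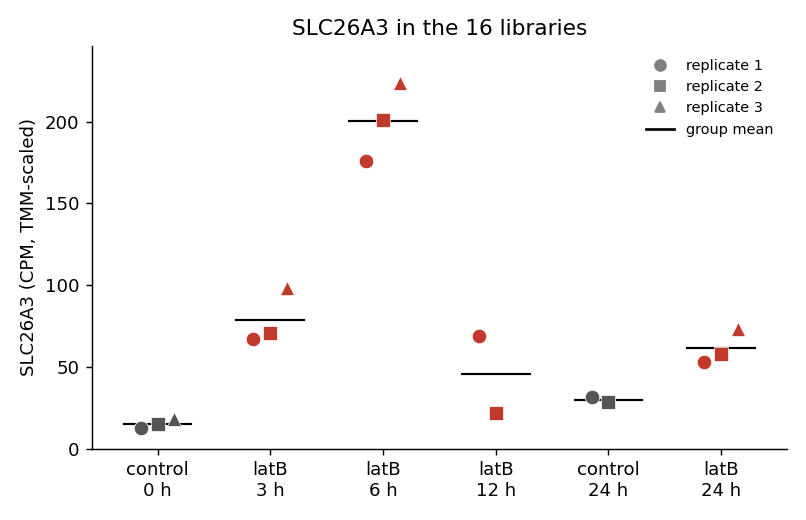
SLC26A3 in CPM (read counts scaled to library size with TMM factors, linear axis from 0) in each of the 16 libraries, by group; symbols mark the replicate, grey the controls, red latrunculin B (latB), and the line the group mean. The 3 libraries at 6 h sit between 175.8 and 223.9 CPM, above all others, and the 2 libraries at 12 h differ from each other (69.0 and 21.7 CPM).

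In order of their mean, the groups ran from 200.2 ± 24.1 CPM at 6 h (SD, n = 3) through 78.7 ± 17.1 at 3 h, 61.3 ± 10.8 at 24 h, 45.4 ± 33.5 at 12 h (n = 2) and 29.8 ± 2.15 in control 24 h to 15.2 ± 2.64 in control 0 h. The ranges of 3 h, 24 h and 12 h overlapped, as did those of 12 h and control 24 h, so their order is not resolved. The values rest on 317 to 5402 reads per library. Between 74.0% and 94.0% of the SLC26A3 TPM of a library was assigned to SLC26A3-201, the full-length coding transcript that begins at the start shown above. SLC26A3-203, a shorter coding transcript from the same start, held a mean of 11.7% of the TPM but 1.88% of the reads. No other gene of GENCODE 44 overlaps SLC26A3.

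On the TPM scale, which allows levels of different genes to be compared, SLC26A3 moved from the eighth place among the 9 genes in control 0 h (10.2 ± 1.57 TPM, SD, n = 3) to the third at 6 h (133.0 ± 13.8 TPM). CFTR (550.5 ± 13.6 TPM in control 0 h) and SLC4A4 (433.6 ± 15.1 TPM) had the highest means in every group, although in 12 h replicate 2 CFTR lay below SLC4A4. SLC4A2 followed with 81.3 ± 6.60 TPM, and SLC4A7, SLC9A3, SLC26A6 and CA2 lay between 19.0 and 34.0 TPM. SLC26A2 was the lowest gene in all groups, with 6.63 ± 0.572 TPM in control 0 h. In control 0 h SLC26A6 was not resolved from its neighbours in this order, since its libraries overlapped those of SLC9A3 above it and of CA2 below it. Part of the TPM of SLC9A3 and SLC4A2 came from short retained-intron transcripts, SLC9A3-202 (59.9% of its TPM, 11.1% of its reads) and SLC4A2-208 (24.6% of its TPM, 1.88% of its reads). This raises their level on the TPM scale.

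**Figure D2:**
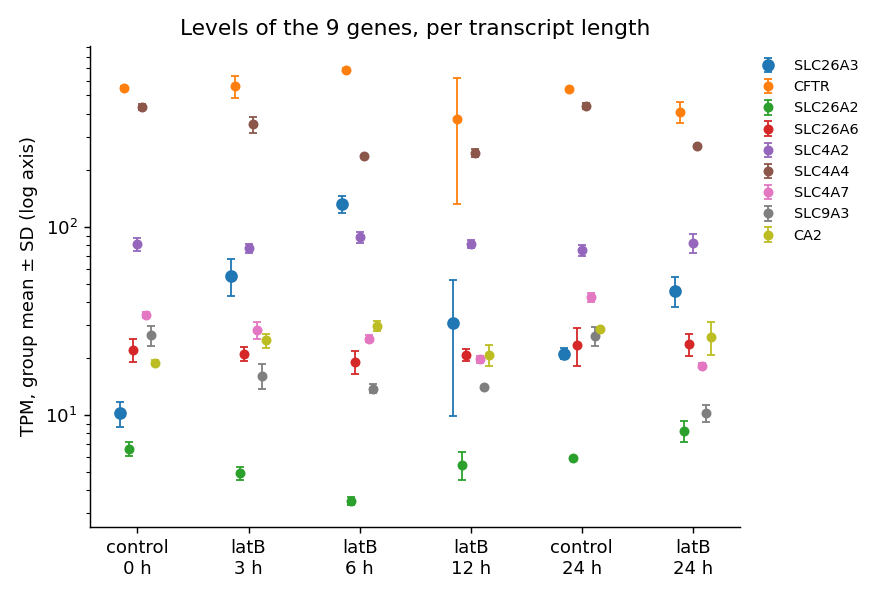
Mean TPM of the 9 genes in each group (log axis, bars are the SD over 2 or 3 libraries, latB is latrunculin B). CFTR and SLC4A4 are the highest in all 6 groups, and SLC26A3 (large blue points) passes from 10.2 TPM in control 0 h to 133.0 TPM at 6 h, above SLC4A2.

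Among the other 8 genes, SLC26A2, SLC4A4, SLC4A7 and SLC9A3 were lower at 3 h of latrunculin B than in control 0 h. SLC4A2 and CA2 were higher, but SLC4A2 was not on log2(TPM + 1) and CA2 was not against control 24 h. Of the genes that were lower, SLC26A2 was not called against control 24 h (edgeR adjusted p 0.192). No vehicle library of 3 h was analysed here, so drug and time in culture cannot be told apart. In all 6 of 8 were called at an edgeR adjusted p under 0.05, while 31.6% of the 16705 genes tested were called in this comparison, 16.8% higher and 14.7% lower. At 6 h it was again 6 of 8, 2 higher and 4 lower, with 43.3% of all genes called (22.9% higher, 20.4% lower). At 12 h 5 of 8 were called, 1 higher and 4 lower, and 4 of 8 without replicate 2, with 35.8% of all genes called (19.1% higher, 16.8% lower). At 24 h against control 24 h 5 of 8 were called, 2 higher and 3 lower, with 40.8% of all genes called (21.9% higher, 18.8% lower). The median log2 change of the 8 was -0.10, -0.20, -0.43 and -0.29 at 3, 6, 12 and 24 h, and that of all genes tested lay between -0.01 and 0.01. Between the controls 0 of the 8 were called by edgeR, with 0.251% of all genes called (0.0299% higher, 0.221% lower). There, 2 of the 8 (SLC4A7 and CA2) had an unadjusted p under 0.05, and DESeq2 called 1, SLC4A7.

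**Figure D3:**
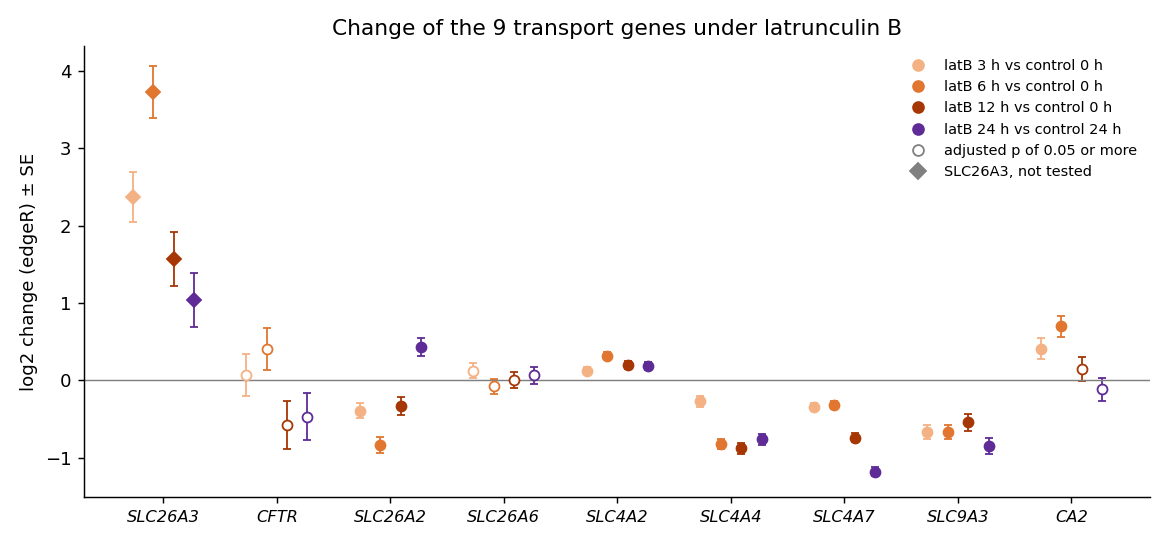
Log2 change (edgeR, bars are the SE) of the 9 genes at 3, 6 and 12 h of latrunculin B (latB) against control 0 h and at 24 h against control 24 h; open circles have an adjusted p of 0.05 or more, and diamonds mark SLC26A3, which was not tested. SLC4A4, SLC4A7 and SLC9A3 lie below 0 at all 4 times, SLC4A2 above 0 at all 4, and SLC26A2 changes from -0.83 at 6 h to 0.43 at 24 h.

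CFTR (ENSG00000001626.18; chromosome 7, 117287120 to 117715971) was the most abundant of the 9 genes by TPM in every group mean. It gave 1710, 1642 and 1673 CPM in control 0 h and 1647 and 1636 CPM in control 24 h. At 3 h the libraries gave 1896, 1886 and 1476 CPM, on both sides of the controls, and the log2 change was 0.07 (SE 0.27, edgeR adjusted p 0.887). At 6 h they gave 2204, 2269 and 2201 CPM, all above every control. The log2 change of 0.41 (SE 0.27) was not called with all libraries in the fit (edgeR adjusted p 0.252). It was called with the same size when 12 h replicate 2 was left out (SE 0.09, adjusted p 0.00188) and when control 0 h and 6 h were fitted alone (adjusted p 5.29e-05), and the alternatives gave adjusted p from 5.29e-05 to 0.397.

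At 12 h CFTR stood at 1715 CPM in replicate 1, within the range of 3 h, and at 539 CPM in replicate 2. The log2 change from control 0 h was -0.57 (SE 0.31, edgeR adjusted p 0.169) with both libraries and 0.033 without replicate 2, so its direction rests on that library. Between 6 h and 12 h CFTR was called lower (log2 change -0.98, SE 0.31, edgeR adjusted p 0.0320), and without replicate 2 it was not (-0.38, adjusted p 0.0608). At 24 h the libraries gave 1134, 1091 and 1333 CPM, all below both libraries of control 24 h. This change of -0.47 (SE 0.30) was again not called with all libraries (edgeR adjusted p 0.237). It was called without 12 h replicate 2 (SE 0.10, adjusted p 0.00173) and when control 24 h and 24 h were fitted alone (adjusted p 0.00805), within a range of 0.00173 to 0.438 over the alternatives. NEUROG3, the defining gene of endocrine precursors, had a mean of 38.0 TPM in these 3 libraries against 1.96 TPM in control 24 h, and its part in the CFTR value was not tested.

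CFTR-201, the full-length coding transcript, held 71.8% of the CFTR TPM and 85.8% of its reads on average, with group means of its TPM share between 68.7% (12 h) and 73.1% (control 24 h). CFTR-214, annotated as a target of nonsense-mediated decay, held 12.1% of the TPM. In GENCODE 44 CFTR overlaps CTTNBP2, WNT2, ASZ1 and the antisense gene CFTR-AS1, and since no source here says whether the counting used strand, reads shared with them cannot be told apart.

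SLC4A4 (ENSG00000080493.19; chromosome 4, 71062667 to 71572087), the electrogenic sodium-bicarbonate cotransporter of the duct, fell early and stayed down. It gave 1883, 1796 and 1908 CPM in control 0 h and 1807 and 1900 CPM in control 24 h. At 3 h the libraries gave 1616, 1656 and 1358 CPM, and at 6 h 1014, 1060 and 1086 CPM. No treated library at any time reached the lowest control. The log2 change was -0.27 (SE 0.07, edgeR adjusted p 0.00636) at 3 h and -0.82 (SE 0.07, adjusted p 8.30e-07) at 6 h. At 12 h the libraries gave 1044 and 984.1 CPM (log2 change -0.88, SE 0.08, edgeR adjusted p 2.48e-06), so the library that stood apart in CFTR was close to its partner here. At 24 h they gave 1094, 1078 and 1116 CPM, a log2 change of -0.76 (SE 0.07, edgeR adjusted p 6.67e-06). From 3 h to 6 h SLC4A4 was called lower (-0.55, SE 0.07, edgeR adjusted p 8.92e-05), and between 6 h, 12 h and 24 h it was not called in either direction.

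Nearly all SLC4A4 RNA was assigned to the outer start shown above. SLC4A4-201, which begins there, held 90.4% to 95.8% of the gene's TPM in every library, and its TPM fell from a mean of 412.1 in control 0 h to 222.1 at 6 h. SLC4A4-202, which begins at the inner start and encodes the kidney form, was listed at 0 in 14 of 16 libraries. It was added to the transcripts shown because of its start, after its values had been seen. Salmon shares reads between transcripts, so these shares are estimates.

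SLC4A7 (ENSG00000033867.17; chromosome 3, 27372721 to 27484420), an electroneutral sodium-bicarbonate cotransporter, fell further with time. It gave 94.9, 92.2 and 98.2 CPM in control 0 h, 75.9, 77.6 and 70.7 CPM at 3 h, and 73.6, 75.1 and 79.8 CPM at 6 h. At 12 h it was at 60.5 and 53.6 CPM, and at 24 h at 49.4, 48.3 and 48.5 CPM against 113.3 and 107.8 CPM in control 24 h. The treated groups lay below both controls at every time, and the 12 h and 24 h groups also below those of 3 h and 6 h. The log2 changes were -0.35 (SE 0.05), -0.32 (SE 0.05), -0.74 (SE 0.06) and -1.18 (SE 0.06), with edgeR adjusted p of 0.000248, 0.000307, 1.80e-06 and 1.02e-07. With an offset for transcript length the change at 3 h missed the threshold (-0.18, adjusted p 0.0838), within a range of 1.66e-08 to 0.0838 over the alternatives.

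SLC4A2 (ENSG00000164889.15; chromosome 7, 151057210 to 151076526), a chloride-bicarbonate exchanger of the basolateral membrane, rose by a small amount in CPM at all times. It gave 145.8, 155.8 and 149.3 CPM in control 0 h and 195.2, 181.9 and 185.3 CPM at 6 h, groups that did not overlap. The log2 change was 0.13 (SE 0.05, edgeR adjusted p 0.0493) at 3 h, 0.32 (SE 0.05, adjusted p 9.89e-05) at 6 h, 0.20 (SE 0.05, adjusted p 0.00863) at 12 h and 0.18 (SE 0.05, adjusted p 0.0122) at 24 h. The direction depends on the scale, because on log2(TPM + 1) the change was -0.075 at 3 h, 0.11 at 6 h, 0.0022 at 12 h and 0.12 at 24 h, and limma called none of these. With an offset for transcript length it was also not called at any of the 4 times, at 0.00071, 0.21, 0.0012 and 0.14. SLC4A2 overlaps CDK5.

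SLC26A2 (ENSG00000155850.9; chromosome 5, 149960758 to 149993455), a sulphate transporter, fell and then rose. It gave 31.6, 27.7 and 31.6 CPM in control 0 h, 23.0, 21.4 and 24.9 CPM at 3 h and 16.3, 16.5 and 18.3 CPM at 6 h. Each of these groups lay below the one before. It was at 22.8 and 25.5 CPM at 12 h, and at 29.9, 39.7 and 38.3 CPM at 24 h against 27.0 and 26.3 CPM in control 24 h. The log2 change was -0.39 (SE 0.10, edgeR adjusted p 0.00992) at 3 h, -0.83 (SE 0.10, adjusted p 3.10e-05) at 6 h and 0.43 (SE 0.11, adjusted p 0.00809) at 24 h. The call at 3 h was lost against control 24 h (edgeR adjusted p 0.192), and that at 24 h was lost in 2 alternatives. At 12 h it was -0.33 (SE 0.11, adjusted p 0.0401), and -0.41 without replicate 2 (adjusted p 0.0502), within a range of 0.0263 to 0.412 over the alternatives. From 6 h to 12 h it rose by 0.51 (SE 0.12, edgeR adjusted p 0.00577; without replicate 2 0.42, adjusted p 0.0680) and from 12 h to 24 h by 0.57 (SE 0.11, adjusted p 0.00817).

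SLC26A6 (ENSG00000225697.13; chromosome 3, 48625723 to 48635493), the anion exchanger that the textbook scheme places beside CFTR in the duct, was not called in any comparison. Its libraries lay between 29.4 and 38.3 CPM in all 6 groups. The log2 change at 3, 6, 12 and 24 h was 0.13, -0.08, 0.0062 and 0.06, with SE of 0.09 to 0.11, which does not show that it did not change. Its transcript SLC26A6-205 took between 0 and 28.1% of the TPM depending on the library.

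SLC9A3 (ENSG00000066230.12; chromosome 5, 470456 to 524449), the sodium-proton exchanger of the apical membrane, fell within 3 h and stayed there. It gave 31.9, 40.4 and 36.0 CPM in control 0 h and 38.8 and 35.8 CPM in control 24 h. All 11 treated libraries lay between 19.7 and 26.1 CPM, below every control. The log2 changes at 3, 6, 12 and 24 h were -0.67, -0.67, -0.54 and -0.85 (SE 0.09, 0.09, 0.10 and 0.10), with edgeR adjusted p of 0.000118, 7.80e-05, 0.00136 and 3.55e-05. The shares of its transcripts also differed between groups. SLC9A3-204, a coding transcript, held 21.4 ± 2.78% of the TPM in control 24 h and 37.5 ± 2.79% at 24 h of latrunculin B, and the retained-intron transcript SLC9A3-202 held 61.2 ± 0.695% and 50.3 ± 5.26%. These shares were not tested, and SLC9A3 overlaps EXOC3, PP7080 and SLC9A3-AS1.

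CA2 (ENSG00000104267.10; chromosome 8, 85463968 to 85481493), the cytosolic carbonic anhydrase, gave 13.3, 12.9 and 12.9 CPM in control 0 h, 18.0, 18.0 and 15.7 CPM at 3 h and 20.7, 20.6 and 22.0 CPM at 6 h. Against control 0 h it was called higher at 3 h (log2 change 0.41, SE 0.14, edgeR adjusted p 0.0352) and at 6 h (0.70, SE 0.14, adjusted p 0.00106). Both libraries of control 24 h also lay above control 0 h, at 18.9 and 19.0 CPM. Against control 24 h the change was -0.13 at 3 h, 0.16 at 6 h and -0.40 at 12 h, so the rise depends on which control is taken. At 12 h the libraries gave 16.9 and 11.9 CPM, and at 24 h 20.9, 13.97 and 17.7 CPM. CA2 was called at neither time against its control (log2 change 0.15, SE 0.15, and -0.11, SE 0.15). From 6 h to 12 h it was called lower (-0.55, SE 0.15, edgeR adjusted p 0.0167), but not without replicate 2 of 12 h (-0.32, adjusted p 0.208).

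**Figure D4:**
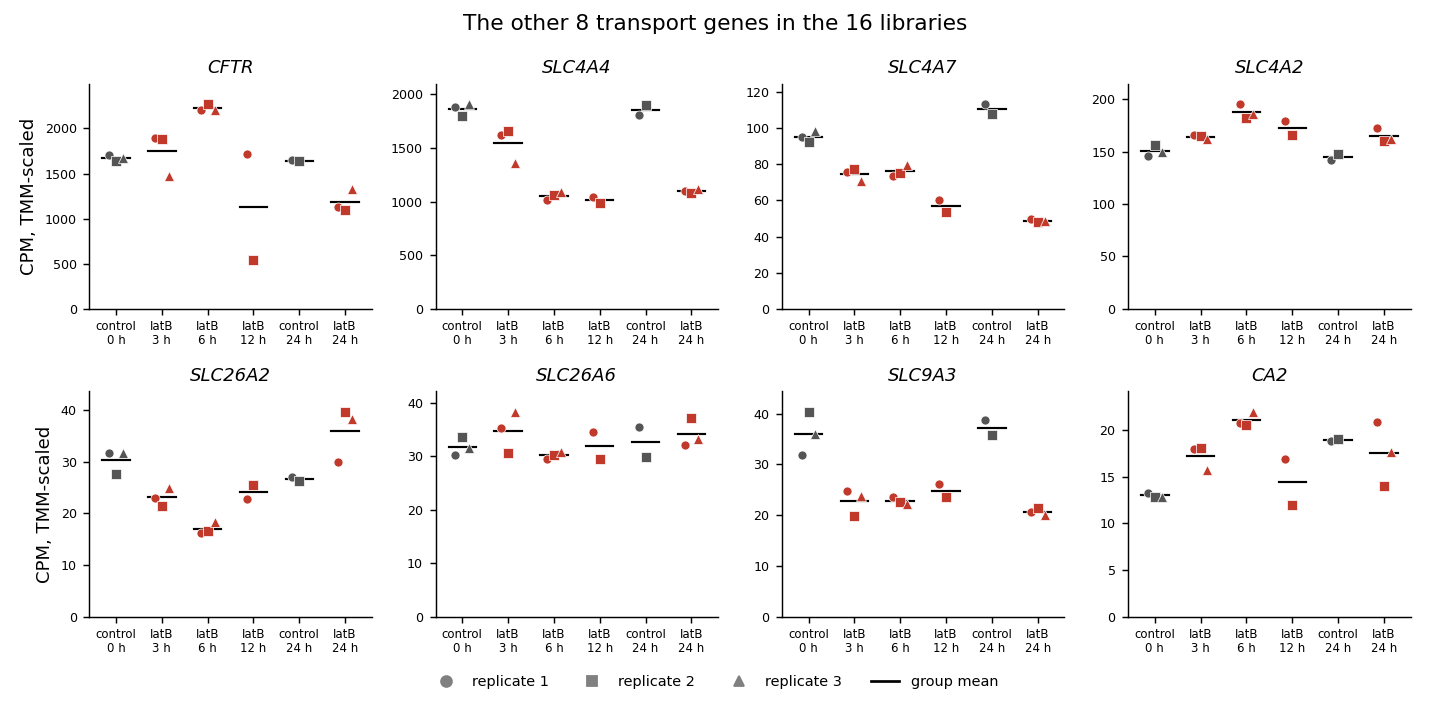
The other 8 genes in CPM (TMM-scaled, linear axes from 0, 1 panel per gene) in each of the 16 libraries, by group; symbols mark the replicate, grey the controls, red latrunculin B (latB), and lines the group means. SLC4A4, SLC4A7 and SLC9A3 are lower in every treated library than in every control, SLC26A2 is lowest at 6 h, and replicate 2 of 12 h is low for CFTR (539 CPM).

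Consecutive times were compared to follow the course under the drug. From 3 h to 6 h 3 of the 8 genes were called, with 22.2% of all genes called (11.9% higher, 10.3% lower): SLC26A2 and SLC4A4 lower and SLC4A2 higher. From 6 h to 12 h 4 were called, with 29.0% of all genes called (13.9% higher, 15.1% lower): SLC26A2 higher and CFTR, SLC4A7 and CA2 lower. Without 12 h replicate 2 only SLC4A7 was called (-0.33, edgeR adjusted p 0.00454), so that count rests on 1 library. From 12 h to 24 h 2 were called, with 11.7% of all genes called (5.96% higher, 5.72% lower). SLC26A2 was higher and SLC4A7 lower (-0.23, SE 0.06, edgeR adjusted p 0.0298). The SLC4A7 call was kept in 6 alternatives and lost in 8, among them the offset for transcript length and log2(TPM + 1). SLC26A3 changed by 1.35 (SE 0.29) from 3 h to 6 h, by -2.15 (SE 0.36) from 6 h to 12 h, and by 0.45 (SE 0.34) from 12 h to 24 h. Without 12 h replicate 2 the last 2 of these were -1.54 (SE 0.24) and -0.17 (SE 0.23).

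The effect at 24 h (against control 24 h) was compared with that at 6 h (against control 0 h) in the same fit. Of the 8 genes 3 were called, SLC26A2 higher and SLC4A7 and CA2 lower, with 22.5% of all genes called (11.4% higher, 11.1% lower). For CFTR the difference was -0.88 (SE 0.41, edgeR adjusted p 0.143), and without 12 h replicate 2 it was called at the same size (adjusted p 0.000395), within a range of 0.000138 to 0.270 over the alternatives. For SLC26A3 the effect at 24 h was lower by 2.68 (SE 0.46) on the log2 scale.

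Beyond these 9, 77 other genes of anion, bicarbonate and proton transport and of fluid secretion were examined, in 7 lists, of which 64 passed the filter on low counts. At 3 h 8 were called higher and 6 lower, at 6 h 11 and 9, at 12 h 12 and 12, and at 24 h 6 and 11. The 14, 20, 24 and 17 of 64 called stand beside 31.6%, 43.3%, 35.8% and 40.8% of all genes called, so the share called was below that of all genes at 3, 6 and 24 h and near it at 12 h. Without 12 h replicate 2 the counts were 10 and 7 at 3 h, 12 and 12 at 6 h, and 8 and 15 at 24 h. The shares of all genes called in that fit, and in the alternatives named next, are not given here. Those counts therefore cannot be set beside the shares above. The split depends on the scale: on log2(TPM + 1) limma called 2 higher and 7 lower at 3 h, 5 and 13 at 6 h and 5 and 12 at 12 h, and with an offset for transcript length edgeR called 3 and 5, 8 and 7, and 4 and 8. Between the controls 0 were called by edgeR and 0 by DESeq2, and without 12 h replicate 2 edgeR called 2. The median log2 change of the 64 was 0.05, 0.01, 0.03 and -0.10 at the 4 times.

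SLC26A9, a chloride channel of the SLC26 family, moved opposite to SLC26A3 in the first hours. It gave 10.4 to 14.2 CPM in control 0 h, 6.03 to 6.82 CPM at 3 h and 3.03 to 3.41 CPM at 6 h, a log2 change of -0.92 (SE 0.14, edgeR adjusted p 0.000205) and -1.89 (SE 0.14, adjusted p 6.07e-07). It was still down at 12 h, at 3.63 and 4.06 CPM (-1.64, SE 0.16, edgeR adjusted p 8.80e-06), and at 24 h its libraries gave 10.8 to 14.9 CPM beside 11.9 and 12.4 CPM in control 24 h. SLC26A9 was the 1 gene of the 5 tested in its list that was called at 3, 6 and 12 h. Of all genes 31.6%, 43.3% and 35.8% were called at these times, so the list was called less often than genes in general. Of the 4 tested in the list of SLC4 bicarbonate transporters, SLC4A5 was higher at 6 h (1.22, SE 0.20, edgeR adjusted p 0.000278) at a level of 2.88 to 3.05 CPM, a call that was lost on the TPM scale (0.44 on log2(TPM + 1), adjusted p 0.0682).

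SLC12A2 and ATP1B1, which work on the basolateral side, were called higher at 3 h and 6 h. SLC12A2, the sodium-potassium-chloride cotransporter that loads chloride, gave 178.0 to 209.2 CPM in control 0 h, 246.1 to 257.0 CPM at 3 h and 335.4 to 373.8 CPM at 6 h (log2 change 0.88, SE 0.10, edgeR adjusted p 1.96e-05). ATP1B1, the beta subunit of the sodium pump, went from 1151 to 1244 CPM in control 0 h to 2090 to 2132 CPM at 6 h (0.82, SE 0.10, edgeR adjusted p 3.46e-05). Neither group at 6 h overlapped its control. Of the 12 tested in their list, 2 were higher and 1 lower at 3 h, at 6 h and at 12 h, and 0 higher and 2 lower at 24 h. Of all genes 31.6%, 43.3%, 35.8% and 40.8% were called at these times, so the list was called less often than genes in general. In the same list the water channel AQP5 fell at 24 h, to 2.49 to 2.97 CPM from 12.3 and 12.8 CPM in control 24 h (-2.19, SE 0.23, edgeR adjusted p 1.34e-05). KCNK5, a potassium channel, was lower at 6 h (-0.57, SE 0.17, edgeR adjusted p 0.0136) and higher at 12 h (1.21, SE 0.17, adjusted p 0.000156). At 12 h KCNK5 was at 20.5 CPM in replicate 1 and at 37.9 CPM in replicate 2, and without replicate 2 the change was 0.70.

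SCTR and ADCY6, which act through cyclic AMP, were called lower. SCTR, the receptor for secretin, the hormone that stimulates duct secretion, gave 58.0 to 60.2 CPM at 24 h against 165.9 and 149.4 CPM in control 24 h (log2 change -1.41, SE 0.15, edgeR adjusted p 1.72e-05). ADCY6, an adenylyl cyclase, was lower at 3 h (-0.35, SE 0.07, edgeR adjusted p 0.00303), 6 h (-0.72, SE 0.08, adjusted p 7.56e-06) and 24 h (-0.59, SE 0.08, adjusted p 0.000109). EZR, which ties transporters to the actin cortex, was lower at 12 h (-0.65, SE 0.07, edgeR adjusted p 2.05e-05), and AHCYL1, a regulator of SLC4A4 and CFTR, at 24 h (-0.67, SE 0.16, adjusted p 0.00471). Of the 15 tested in this list 3 were higher and 5 lower at 6 h, beside 43.3% of all genes called, and 2 higher and 4 lower at 24 h, beside 40.8%. OXSR1, a kinase that regulates chloride transport, was called higher at 3 h (0.19, SE 0.04, edgeR adjusted p 0.00360).

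Of the 10 other carbonic anhydrases tested, 2 were lower at 3 h, 1 was higher and 2 lower at 6 h, and 2 were higher and 3 lower at 12 h, beside 31.6%, 43.3% and 35.8% of all genes called. CA4, which faces the extracellular side, gave 367.5 to 415.9 CPM in control 0 h and 192.8 to 277.7 CPM at 3 h (-0.68, SE 0.21, edgeR adjusted p 0.0237). The value in control 24 h was also low, at 250.7 and 268.9 CPM, and against it the change at 3 h was -0.09 (adjusted p 0.805), the upper end of a range that began at 0.00111. CA8, a relative without enzyme activity, fell from 9.35 to 11.2 CPM to 3.77 to 5.11 CPM at 6 h (-1.20, SE 0.22, edgeR adjusted p 0.000719). Control 24 h was low for CA8 too, at 6.44 and 7.33 CPM, and against it the change at 6 h was -0.64 (adjusted p 0.0518), within a range of 3.31e-06 to 0.0653 over the alternatives. CA7, a cytosolic carbonic anhydrase, gave 3.18 to 3.83 CPM in control 0 h and 0.437 and 0.101 CPM at 12 h, where it was called lower (edgeR adjusted p 3.02e-05). Among other proton carriers the monocarboxylate transporter SLC16A7 rose at 6 h, from 12.6 ± 1.26 to 24.7 ± 2.15 CPM (SD, n = 3) (0.97, SE 0.16, edgeR adjusted p 0.000330), and the proton pump ATP12A fell at 24 h (-1.70, SE 0.24, edgeR adjusted p 0.000111).

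The genes around SLC26A3 were examined beside it. In the 300 kb on either side of its start GENCODE 44 places 18 other genes in whole or in part, of which 11 had rows in the files and 9 were tested. CBLL1, the nearest tested gene, starts 60.2 kb away and encodes an E3 ubiquitin ligase. It rose by 0.58 (SE 0.05, edgeR adjusted p 1.27e-06) at 3 h and by 0.51 (SE 0.05, adjusted p 2.57e-06) at 6 h. DLD, 87.9 kb away on the other side, changed by -0.12 (SE 0.05) at 3 h and by -0.16 (SE 0.05, edgeR adjusted p 0.0191) at 6 h. BCAP29 rose by 0.45 (SE 0.07) and DUS4L fell by 0.59 (SE 0.11) on the log2 scale at 6 h, and LAMB1 fell by 0.49 (SE 0.10) at 24 h. SLC26A4, the paralogue next to CBLL1, had a median of 0.205 TPM and was not called. At 6 h COG5, WBP1LP2, LAMB1 and LAMB4 were also not called. Of all genes tested, 31.6% were called at 3 h, 43.3% at 6 h and 40.8% at 24 h, so a call did not set a neighbour apart. No neighbour changed by more than 1.36 on the log2 scale at any of the 4 times, and that value belonged to the pseudogene WBP1LP2, with a median of 0.460 TPM.

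**Figure D5:**
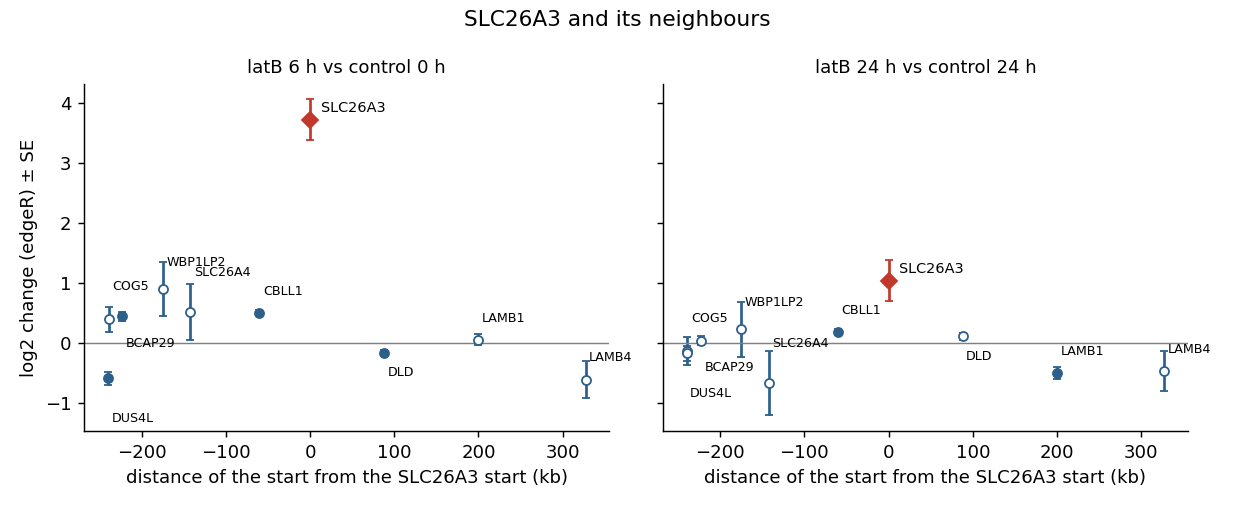
Log2 change (edgeR, bars are the SE) of SLC26A3 (red diamond) and of the 9 tested neighbours, against the distance of their start from the SLC26A3 start in kb, at 6 h of latrunculin B (latB) against control 0 h and at 24 h against control 24 h; filled circles have an adjusted p under 0.05. At 6 h SLC26A3 stands at 3.72 while CBLL1 stands at 0.51 and DLD at -0.16.

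Over the 16 libraries, the genes whose log2 CPM ran most like that of SLC26A3, among 13262 genes with a mean of at least 1, were CCDC47 (Pearson r = 0.958), MEX3A (0.955), ZMYND19 (0.952), PTBP2 (0.949) and RPF2 (0.948). Their levels moved less, CCDC47 from a mean of 133.8 CPM in control 0 h to 216.2 CPM at 6 h. Those most like CFTR included ZBED3 (0.956), CSGALNACT1 (0.933), MAP1LC3A (0.930) and VTN (0.928). The r between CFTR and SLC26A3 themselves was 0.427. The points share 6 groups and the library that stood apart, so these values describe likeness only.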

How the data were processed

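RNA of 16 libraries (6 groups, sequenced after poly(A) selection) was quantified by the authors with Salmon 1.3.0 against hg38, according to the submitters' processing notes. The deposited files, per their headers, hold estimated counts and TPM for 177456 transcripts. The study's methods also describe another route, STAR with gene counts. Here 165533 transcripts were matched to genes by GENCODE 44 identifiers (151923 with the same version), which left out 2.92% to 3.17% of the reads per library, and were summed to 35810 genes. Strand use in the counting is not given in the sources used here.

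Summed counts were rounded, filtered (filterByExpr, 16705 genes kept), scaled by TMM (factors 0.947 to 1.05) and tested with edgeR 4.0.16 (quasi-likelihood, 1 fit over all 6 groups, Benjamini-Hochberg over all genes tested, two-sided, threshold 0.05) in R 4.3.3. Alternatives used DESeq2 1.42.0, limma 3.58.1 on log2(TPM + 1) and log2(TPM + 0.1), an offset for transcript length, other scalings and filters, a replicate block, the other control and fits without single libraries. Changes on log2(TPM + 1) understate those of low genes. The scripts were tested on simulated data.

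The 9 genes and the other lists were chosen with earlier results of these data known. Of the 77 listed genes, those with a median of at least 1 TPM in some group and a call were eligible for naming, at most 3 per list and comparison by size of change. Genes within 300 kb of the SLC26A3 start and the 5 most like SLC26A3 and CFTR were also named. Some genes that this rule would name are not reported here. The deposited table of the authors' own DESeq2 comparisons, with 16 per-sample columns, was not used. Libraries with the same replicate number did not deviate together (median correlation of deviations -0.0231, range -0.241 to 0.116, 36 pairs), so they were not paired. No vehicle library of 3, 6 or 12 h was analysed here.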

Additional observations from a re-analysis of the deposited data

Results flagged for a closer look

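For 3 genes the change at 24 h of the drug, measured from control 24 h, was unlike the change at 6 h, measured from control 0 h, by a test of the difference itself in edgeR over all genes. For SLC26A2, a sulphate transporter, the later change was higher by 1.26 on the log2 scale (SE 0.15, adjusted p 0.000145), from -0.83 at 6 h to 0.43 at 24 h. For SLC4A7, a sodium-bicarbonate cotransporter, the difference was -0.86 (SE 0.08, adjusted p 2.63e-05), from -0.32 to -1.18. For CA2, a carbonic anhydrase, it was -0.81 (SE 0.20, adjusted p 0.0115), from 0.70 to -0.11. Part of these differences lies between the controls. Control 24 h was higher than control 0 h by 0.22 for SLC4A7 and by 0.54 for CA2 (edgeR adjusted p 0.164 and 0.177), which for CA2 is most of the value. For SLC26A2 the change between the controls was -0.18 (edgeR adjusted p 0.761). The SLC26A2 libraries at 24 h of the drug, 29.9 to 39.7 CPM, overlapped those of control 0 h, 27.7 to 31.6 CPM. The treated groups themselves had means of 21.1 CPM at 6 h and 17.5 CPM at 24 h for CA2.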

How the results depend on the processing

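Of the 8 tested genes, the number called at 12 h fell from 5 to 3 with the length offset, in a fit of the compared groups alone and on both TPM scales. Between the controls it rose from 0 to 1 with DESeq2 and in the fit of the compared groups alone. From 3 h to 6 h it went from 3 to 5 in that fit, from 6 h to 12 h from 4 to 2, and from 12 h to 24 h from 2 to 0. From 12 h to 24 h it was 1 with the length offset, the replicate block and both TPM scales. The replicate block moved no other count by over 1.5 times. With 1 library left out at a time the counts ran from 4 to 6 at 3 h, 6 to 7 at 6 h, 4 to 5 at 12 h, 4 to 6 at 24 h, 0 to 0 between the controls, 3 to 4 from 3 h to 6 h, 1 to 5 from 6 h to 12 h, 1 to 3 from 12 h to 24 h, and 3 to 4 for the difference of effects. Where this left 1 library in a group, that library was assumed to vary like the other groups.

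The split of calls moved with scale: on log2(TPM + 1) it was 1 higher and 4 lower at 3 h and at 6 h, 0 and 3 at 12 h and 1 and 3 at 24 h, and without scaling 0 and 4 at 3 h. Without scaling the median of all genes moved to 0.11 from 6 h to 12 h and to 0.12 for the difference of effects. Without 12 h replicate 2, added after seeing the data, 6 were called at 3 h, 7 at 6 h and 6 at 24 h. CFTR was the gene gained at 6 h and 24 h. The shares of all genes called in these settings are not given here.

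Directions reversed as follows, on the log2 scale. SLC26A6 at 3 h was -0.056 on log2(TPM + 1) and -0.058 on log2(TPM + 0.1). At 12 h SLC26A6 was -0.077 with the length offset, -0.0064 with the compared groups alone, -0.074 and -0.077 on the same TPM scales and -0.033 against control 24 h, and it ran from -0.12 to 0.12 with 1 library left out at a time. At 24 h SLC26A6 ran from -0.055 (without control 24 h replicate 2) to 0.19, and was -0.000404 without replicate 2 of latrunculin B. CFTR at 3 h was -0.013 without scaling, and ran from -0.015 (without replicate 1 of 3 h) to 0.16. At 12 h CFTR ran from -1.64 without replicate 1 to 0.033 without replicate 2. SLC4A2 at 3 h was -0.075 and -0.076 on the TPM scales. CA2 was -0.13 at 3 h, -0.40 at 12 h and 0.43 at 24 h against the other control. With 1 library left out CA2 ran from -0.12 (without replicate 1) to 0.38 (without replicate 2) at 12 h, and from -0.26 (without replicate 1) to 0.027 (without replicate 2) at 24 h. SLC26A3 from 12 h to 24 h ran from -0.17 without 12 h replicate 2 to 1.499 without replicate 1, and BSG at 3 h was -0.052 on both TPM scales. The cause of these changes was not tested.

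Over all settings, 831 values of the 9 genes held, 68 became weaker, 10 stronger, 23 reversed and 7 moved. For the tested genes, a value that held kept its direction and its side of the threshold. For SLC26A3, which was not tested, it kept its direction and shifted by less than the SD within groups. Larger shifts of SLC26A3 in the same direction were counted as moved. Calls of SLC4A4, SLC9A3 and SLC26A2 at 6 h held in every setting. The values of CA2 rest on 303 to 613 reads per library and those of SLC26A2 on 428 to 1293.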
